A study of Mus musculus with 24 samples.

Results

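The annexins are a family of proteins that bind acidic phospholipids of cell membranes when calcium is present. The 9 genes described here are Anxa1, Anxa2, Anxa3, Anxa4, Anxa5, Anxa6, Anxa7, Anxa8 and Anxa11. Their rows were taken by gene symbol, and all 9 were found among the 14912 genes of the deposited table. The family was chosen with earlier results of these data known.

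Each annexin carries a conserved core that docks on membranes through bound calcium, and an N-terminal tail that differs between members and binds partners such as S100 proteins. Annexins take part in membrane repair, vesicle traffic, the control of inflammation and of fibrinolysis at the cell surface, and the handling of calcium. In the heart they are made both by cardiomyocytes and by the fibroblasts, vascular cells and immune cells around them, and ANXA5 and ANXA6 are among the better known members in cardiac tissue.

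Left ventricles were taken from male wild-type C57BL/6J mice. In the hypertensive-LVH samples analysed here, 12 mice had received ANG II, the peptide hormone that raises blood pressure, at 1500 ng/kg/min from subcutaneous osmotic mini-pumps for 7 days, and 12 control mice had received saline; the study's methods state more mice per group than were analysed here. The heart was flushed with saline before the ventricle was removed, and mRNA selected with oligo(dT) from the whole tissue was sequenced. The comparison of the groups asks which genes change in ventricles that hypertrophy under ANG II-induced hypertension.

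The authors deposited FPKM, a count of fragments scaled to transcript length and to sequencing depth. Plain FPKM lets levels of different genes be set side by side. The deposited values carry a further adjustment, described next, so orders, sums and shares of annexins below are on the adjusted scale. Some values had been altered, as 0.766% of them were below 0, among them 2 values of Anxa8. Exact ties between samples of a group, in 282 to 600 genes per pair, divided the samples into 4 sets. The first set held the samples numbered 1 to 3 in each group, the next held 4 to 6, then came 7 to 9 and finally 10 to 12. Inside a set, each gene had been shifted and scaled. What the sets are is not given in the sources used here. The values of a sample summed to between 482319 and 567727 for controls and to between 460715 and 515185 after ANG II, and the depth in fragments is unknown. The limma tests take no account of this adjustment, so the differences within sets before it are given as well.

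In GENCODE vM21, on build GRCm38, all 9 are protein-coding genes. Anxa1 lies on chr19:20373428-20390944 (minus strand), Anxa2 on chr9:69453620-69491795 (plus), Anxa3 on chr5:96793339-96845966 (plus), Anxa4 on chr6:86736840-86793584 (minus), Anxa5 on chr3:36448923-36475894 (minus) and Anxa6 on chr11:54979108-55033445 (minus). The other members share chromosome 14, with Anxa7 at chr14:20455260-20480133 (minus), Anxa11 at chr14:25842156-25886804 (plus) and Anxa8 at chr14:34085981-34100571 (plus). The build that the authors used is not given in the sources used here, and the table itself holds symbols only.

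The RefSeq promoter windows of the annexins that met the criteria for a differentially expressed gene (DEG) and of the annexin that fell are printed here, because these members moved in unlike ways. Each line holds the 250 bases before the RefSeq start on build GRCm38.p6, 5′ to 3′ on the strand of the gene. The windows are chr19:20390672-20390921 (minus) for Anxa1, chr9:69453433-69453682 (plus) for Anxa2, chr6:86793585-86793834 (minus) for Anxa4 and chr14:25841905-25842154 (plus) for Anxa11. Capitals mark matches, on either strand, to TGANTCA (the AP-1 motif), GGGCGG (the GC box) or TATAAA (the TATA box).
Anxa1: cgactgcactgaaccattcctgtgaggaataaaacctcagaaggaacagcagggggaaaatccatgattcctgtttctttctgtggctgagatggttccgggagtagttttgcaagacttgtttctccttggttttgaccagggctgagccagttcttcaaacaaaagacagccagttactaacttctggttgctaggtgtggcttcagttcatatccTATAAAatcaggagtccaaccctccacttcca
Anxa2: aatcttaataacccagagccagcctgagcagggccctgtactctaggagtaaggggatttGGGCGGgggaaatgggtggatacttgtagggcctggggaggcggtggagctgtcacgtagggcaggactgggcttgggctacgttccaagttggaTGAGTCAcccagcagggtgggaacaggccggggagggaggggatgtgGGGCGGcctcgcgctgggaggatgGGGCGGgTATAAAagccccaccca
Anxa4: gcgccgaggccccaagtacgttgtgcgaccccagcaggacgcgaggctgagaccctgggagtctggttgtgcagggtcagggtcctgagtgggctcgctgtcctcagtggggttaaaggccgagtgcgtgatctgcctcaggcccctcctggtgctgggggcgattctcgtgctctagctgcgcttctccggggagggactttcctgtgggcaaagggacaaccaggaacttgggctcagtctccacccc
Anxa11: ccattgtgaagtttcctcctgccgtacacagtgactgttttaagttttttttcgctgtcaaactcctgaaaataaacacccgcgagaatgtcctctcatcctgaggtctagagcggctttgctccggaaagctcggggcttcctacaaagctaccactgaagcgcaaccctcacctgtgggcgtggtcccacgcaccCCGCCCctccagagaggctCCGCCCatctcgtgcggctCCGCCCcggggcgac
A window was found for 7 of the 9 annexins. The Anxa2 window held the AP-1 motif, with its first base 95 bases before the start, 3 GC boxes at 190, 48 and 24 bases and a TATA box at 17 bases. Among all 32851 RefSeq windows, cut to the same 250 bases, 6.75% held the AP-1 motif, 32.7% the GC box and 12.4% the TATA box. The Anxa1 window had a TATA box at 32 bases and neither of the other motifs. The Anxa11 window had 3 GC boxes, at 53, 34 and 15 bases, and the Anxa4 window had no match to any of the 3 motifs. A match describes the letters of the window and not the binding of a factor.

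In control ventricles the order of mean levels was Anxa6, Anxa5, Anxa2, Anxa11, Anxa7, Anxa3, Anxa1, Anxa4 and Anxa8, from 112 ± 5.55 FPKM for Anxa6 to 1.02 ± 1.01 for Anxa8 (mean ± SD, n = 12 in each group here and for all values below). Anxa6, which has a duplicated core and is abundant in heart muscle, was above Anxa5 in all 12 control samples, and their ranges did not touch. Ranges were also apart between Anxa7 and Anxa3 and between Anxa4 and Anxa8, whereas every other pair of neighbours overlapped. Within single samples, Anxa2 was above Anxa11 in 8 of 12 controls and Anxa1 above Anxa4 in 11 of 12, and the remaining neighbours down to Anxa4 and Anxa8 kept their order in all 12.

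After ANG II the order changed. Anxa2 moved from the third place to the second, behind Anxa6 (117 ± 6.73) and ahead of Anxa5, although neither step exceeded the spread between samples: Anxa6 was above Anxa2 in 6 of 12 samples and Anxa2 above Anxa5 in 7 of 12. Anxa2 was above Anxa6 in 0 of 12 controls, and in hypertensive-LVH samples 4, 5, 6, 7, 8 and 11. Such orders within samples hold on the adjusted scale, where each gene was shifted and scaled, and may differ before it. Anxa7 and Anxa11 exchanged places, and each pairwise order held in all 12 samples of its group. Anxa1 passed Anxa3 in the order of means, but was above it in only 6 of 12 samples.

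The sum of the 9 annexins was 409 ± 33.4 FPKM in the control group, with a range of 363 to 471, and 518 ± 65.5 after ANG II, with a range of 436 to 619. The share of this sum held by Anxa2 was 14.9% ± 2.80 in controls and 21.6% ± 3.43 after ANG II. The share of Anxa6 was 27.5% ± 2.54 and 22.8% ± 2.34, and that of Anxa11 was 12.8% ± 1.57 and 8.26% ± 1.57. The share of Anxa5 hardly moved, at 20.0% ± 0.938 and 20.2% ± 1.03.

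**Figure D1:**
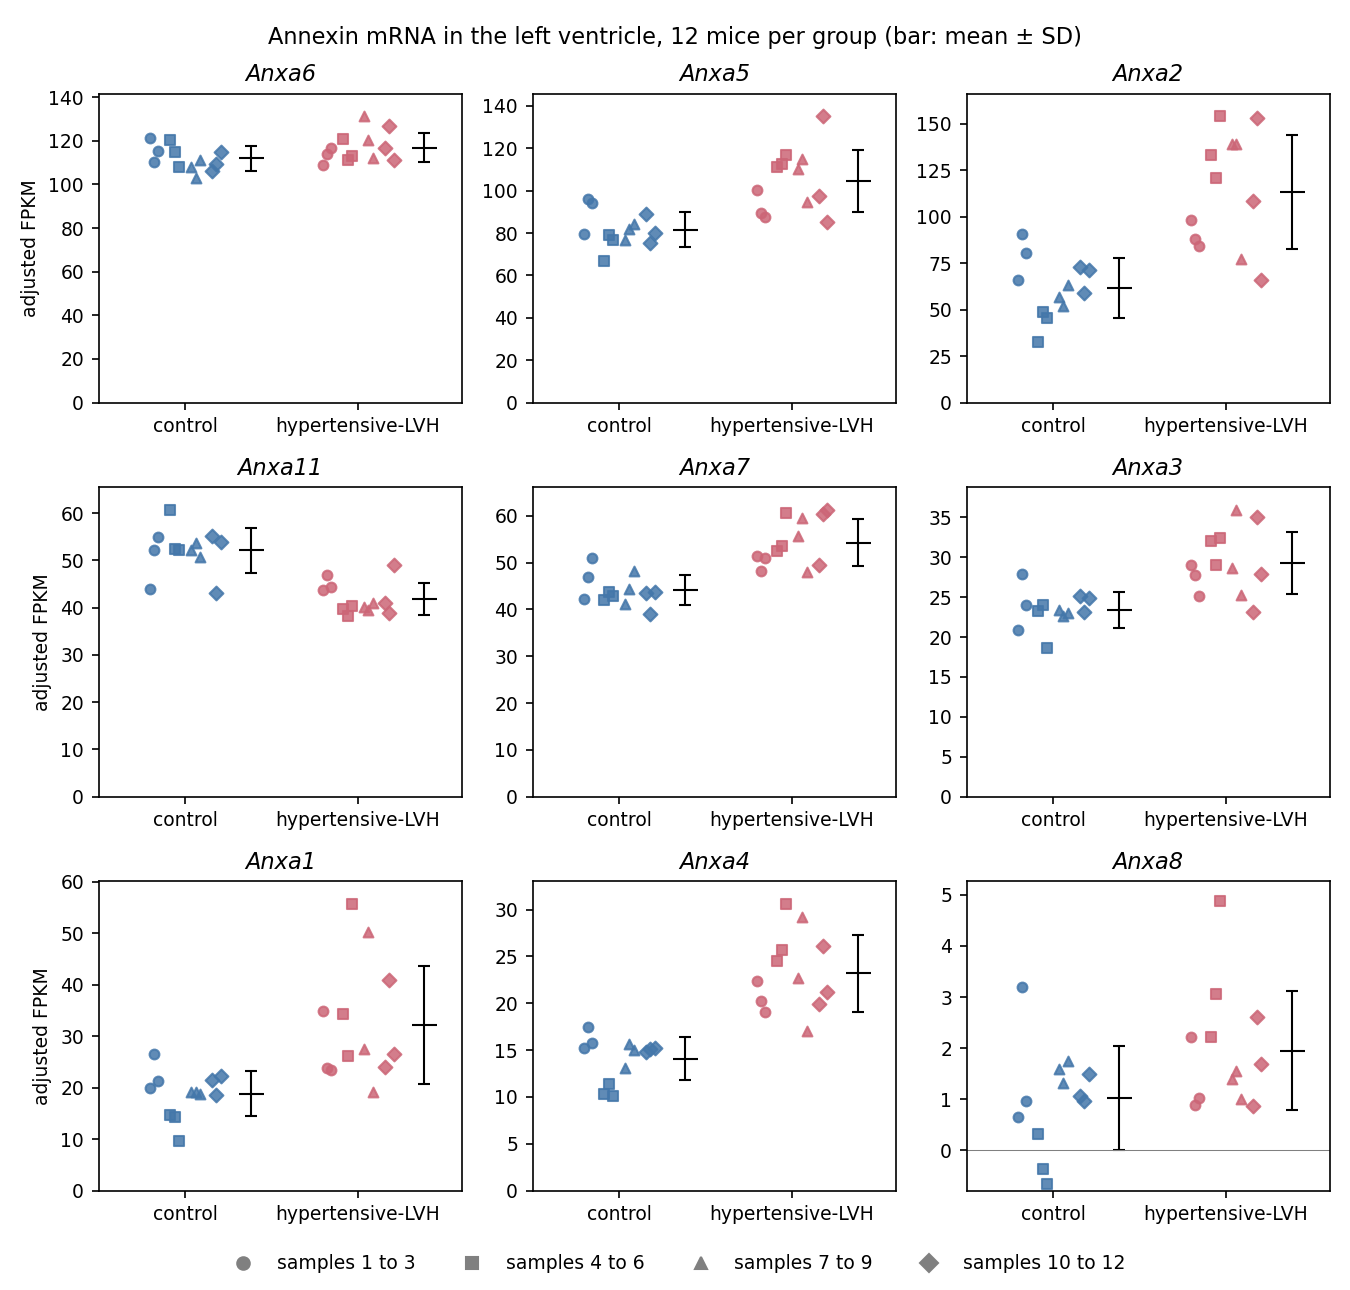
Adjusted FPKM (vertical axis) of each annexin in the control (blue) and hypertensive-LVH (red) samples, with the mean ± SD of 12 mice as a black bar and the marker shape showing the set of samples. For Anxa4, 11 of 12 hypertensive-LVH samples lie above the highest control, and for Anxa11 8 of 12 lie under the lowest control. For Anxa6, 11 of 12 lie above the control median but only 2 above the highest control.

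Between the groups, 7 of the 9 annexins passed an adjusted p of 0.05 (limma with Benjamini-Hochberg adjustment over 14026 genes), 6 of them higher and 1 lower in the hypertensive-LVH group. Of all genes tested, 33.5% passed, 20.9% higher and 12.6% lower. Anxa1, Anxa2, Anxa3, Anxa4, Anxa5 and Anxa7 rose, Anxa11 fell, and Anxa6 and Anxa8 did not pass. With the further threshold of an absolute log2 fold change over 0.5, Anxa1, Anxa2 and Anxa4 were upregulated DEGs, so 3 of 9, while 5.92% of all genes tested were DEGs, 4.52% upregulated and 1.40% downregulated. The median log2 fold change was 0.35 over the 9 annexins and 0.05 over all genes tested. Under quantile normalization the median of all genes was -0.02 and the share of calls that were higher was 39.6% instead of 62.3%, yet the same 7 annexins passed, in the same directions. The groups overlapped for all 9 annexins, whereas they did not overlap for 0.756% of all genes tested, with the hypertensive-LVH group higher for 0.271% and lower for 0.485%.

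**Figure D2:**
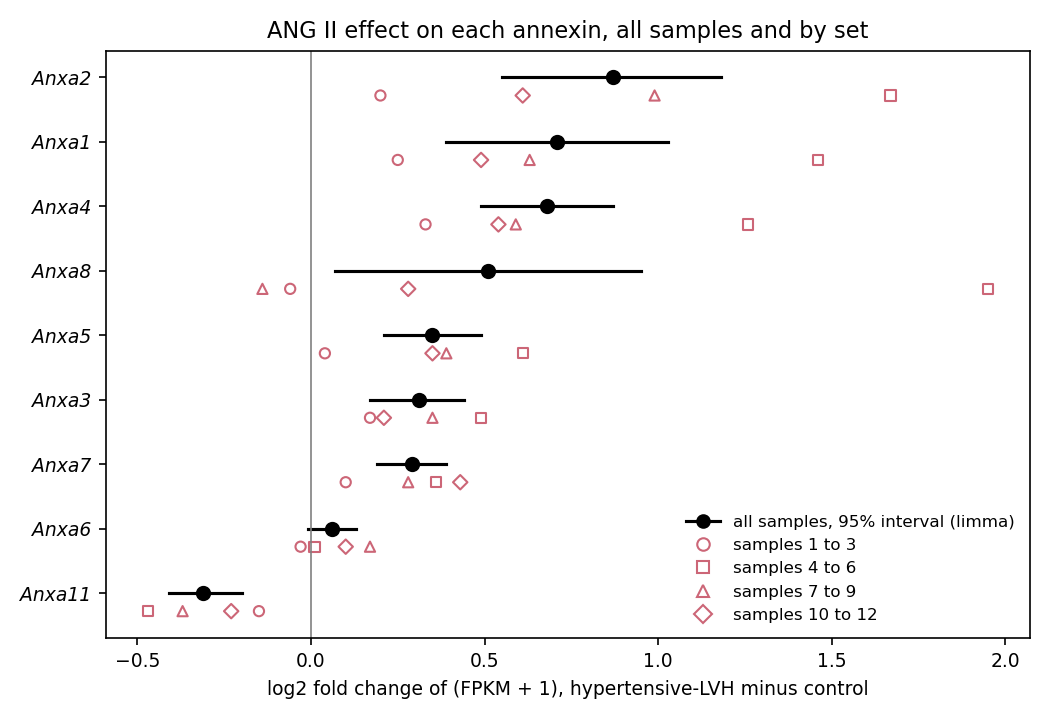
Log2 fold change of FPKM + 1 (horizontal axis, hypertensive-LVH minus control) for each annexin, with black points and lines for all samples and the 95% interval from limma, and open red symbols for the difference of means in each set of samples. Anxa2, Anxa1 and Anxa4 have the intervals farthest to the right among the called genes, Anxa11 is left of 0 in every set, and the squares of samples 4 to 6 are the farthest from 0 for 7 of the 9 annexins.

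Among the annexins that passed, Anxa2 had the highest fold change on the log2(FPKM + 1) scale. Its protein joins S100A10 at the cell surface, where the complex binds plasminogen and its activator. Control samples ranged from 32.7 to 90.8 FPKM with a median of 61.0, and hypertensive-LVH samples from 66.0 to 154 with a median of 115. All 12 hypertensive-LVH samples were above the control median and 8 were above the highest control; samples 2, 3, 9 and 12 lay within the control range. The means were 61.6 ± 16.0 and 113 ± 30.5, a ratio of 1.84, and the log2 fold change was 0.87 ± 0.15 (SE, 95% interval 0.55 to 1.18, limma adjusted p = 0.00017).

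Anxa1 encodes a glucocorticoid-induced protein that restrains inflammation through formyl peptide receptors. It ranged from 9.73 to 26.6 FPKM in controls, with a median of 19.1, and from 19.2 to 55.7 after ANG II, with a median of 27.0. All hypertensive-LVH samples exceeded the control median, but only 6 exceeded the highest control, and samples 6 and 8 were the highest, at 55.7 and 50.3 FPKM. The log2 fold change was 0.71 ± 0.16 (95% interval 0.39 to 1.03, limma adjusted p = 0.00144). Without samples 4 to 6 of both groups it was 0.46, which still passed the test (limma adjusted p = 0.0265) but not the fold threshold.

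Anxa4, whose protein assembles into lattices on membranes, separated the groups best. Controls ranged from 10.1 to 17.5 FPKM (median 15.1) and hypertensive-LVH samples from 17.0 to 30.6 (median 22.5). Sample 9 was the only hypertensive-LVH sample not above the highest control, and control sample 2 the only control above the lowest hypertensive-LVH sample. The ratio of means was 1.65, and the log2 fold change of 0.68 ± 0.09 (95% interval 0.49 to 0.87) had a limma adjusted p of 1.17e-05. Leaving out samples 4 to 6 lowered it to 0.49, just under the fold threshold.

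The other members that rose did so by less. Anxa5 encodes the phosphatidylserine-binding protein with anticoagulant activity that is used to stain dying cells. It went from 66.8 to 96.1 FPKM (median 79.6) in controls and from 85.2 to 135 (median 105) after ANG II, with 8 samples above the highest control. Its log2 fold change was 0.35 ± 0.07 (limma adjusted p = 0.000467). Anxa7 encodes synexin, which binds the calcium-regulating protein sorcin. Its controls ranged from 39.0 to 50.9 FPKM (median 43.6) and its hypertensive-LVH samples from 48.0 to 61.2 (median 53.0). The log2 fold change was only 0.29 ± 0.05, but the groups were narrow, with 9 samples above the highest control (limma adjusted p = 8.61e-05). Anxa3, known from neutrophil granules among other sites, ranged from 18.6 to 27.9 FPKM (median 23.3) in controls and from 23.2 to 35.9 (median 28.8) after ANG II. It changed by 0.31 ± 0.07 (limma adjusted p = 0.00106), and 11 of 12 hypertensive-LVH samples were above the control median.

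Anxa11 was the only annexin that fell. Its protein has a long disordered N-terminal tail and takes part in cytokinesis and in the transport of RNA granules. Levels ranged from 43.2 to 60.6 FPKM (median 52.4) in controls and, after ANG II, from 38.3 to 49.1 (median 40.6). All 12 hypertensive-LVH samples were under the control median and 8 under the lowest control, and 10 of 12 controls were above the highest hypertensive-LVH sample. The means were 52.1 ± 4.72 and 41.9 ± 3.42, and the log2 fold change was -0.31 ± 0.05 (95% interval -0.41 to -0.20, limma adjusted p = 7.79e-05).

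For Anxa6, the most abundant member, a change was not detected. Controls ranged from 103 to 121 FPKM (median 111) and hypertensive-LVH samples from 109 to 131 (median 115). Of the 12 hypertensive-LVH samples, 11 were above the control median, but only 2 were above the highest control. The 95% interval of the log2 fold change ran from -0.01 to 0.13 around 0.06 (limma adjusted p = 0.167).

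Anxa8, a member known mainly from epithelia, was near the lower end of what the table resolves. Controls ranged from -0.654 to 3.20 FPKM with a median of 1.02, and hypertensive-LVH samples from 0.875 to 4.87 with a median of 1.62. Control samples 5 and 6 held the negative values, and 8 of 12 hypertensive-LVH samples were above the control median. The log2 fold change of 0.51 ± 0.21 did not pass (95% interval 0.07 to 0.95, limma adjusted p = 0.0674). It rested on samples 4 to 6, without which it was 0.03 (limma adjusted p = 0.916, against 0.0201 to 0.916 over 37 alternatives). The call was gained when samples 1 to 3 (0.70, limma adjusted p = 0.0335) or 7 to 9 (0.73, limma adjusted p = 0.0473) of both groups, hypertensive-LVH sample 10 (0.56, limma adjusted p = 0.0470) or control sample 2 (0.61, limma adjusted p = 0.0201) were left out. Of the other annexin genes, Anxa9 (0.548 ± 0.282 and 0.569 ± 0.191 FPKM) and Anxa13 (0.573 ± 0.192 and 0.465 ± 0.186) were lower still, and neither passed (limma adjusted p = 0.798 and 0.274).

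The size of the ANG II effect varied with the set of samples. For Anxa2 the difference of deposited means was smallest in samples 1 to 3, at 11.1 FPKM, and largest in samples 4 to 6, at 93.6. It was 61.0 for samples 7 to 9 and 41.7 for the last set. A limma test of the interaction of group and set passed for Anxa8 (adjusted p = 0.00797), Anxa4 (adjusted p = 0.0215) and Anxa2 (adjusted p = 0.0398), so for 3 of 9 annexins, and for 7.49% of all genes tested. After quantile normalization only Anxa8 passed, and after median-ratio scaling Anxa4 and Anxa8 did. The share of all genes that passed under these scalings was not computed, so the lower counts are not read as particular to annexins. For the remaining annexins the interaction had limma adjusted p-values from 0.169 (Anxa1) to 0.551 (Anxa3).

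Before the adjustment, the differences within sets could be solved from the spacing of the values, assuming FPKM rounded to hundredths, and each of the 9 annexins gave a single solution. Averaged over the sets, Anxa2 was 46.5 FPKM higher in the hypertensive-LVH group (two-sided exact permutation test within sets, 160000 relabelings, p = 0.00143), against 51.8 in the deposited values (exact permutation p = 0.000162). Anxa1 was 13.5 FPKM higher (exact permutation p = 0.000538) and Anxa4 was 8.78 FPKM higher (exact permutation p = 2.5e-05). For Anxa5 the difference was 20.3 FPKM (exact permutation p = 0.00299), for Anxa7 9.41 (exact permutation p = 0.000362) and for Anxa3 6.58 (exact permutation p = 0.000375). Anxa11 was lower by 10.1 FPKM on average, with a mean difference of -10.1 (exact permutation p = 0.000538). Anxa6 did not pass, at 4.53 (exact permutation p = 0.143). Anxa8 was 1.28 FPKM higher with an exact permutation p of 0.0485, compared with 0.924 and 0.0650 as deposited. These 9 p-values are not adjusted for the number of genes.

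Samples 1 to 3 stood apart in these differences. There, before the adjustment, Anxa2 was at -3.97 FPKM (hypertensive-LVH minus control), Anxa5 at -7.71, Anxa6 at -4.89, Anxa7 at -0.587 and Anxa8 at -0.740, and the groups overlapped for all 9 annexins. The Anxa2 difference was 91.0 FPKM for samples 4 to 6, 60.0 for the set after it and 39.1 for the last set. The groups of samples 4 to 6 did not overlap for any annexin except Anxa6. With 3 mice per group, the share of all genes without overlap in a single set was not computed. Nothing is therefore read from the overlaps in single sets. Anxa1, Anxa3 and Anxa4 were higher, and Anxa11 lower, in all 4 sets. Whether the differences before the adjustment vary between the sets beyond chance was not tested.

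**Figure D3:**
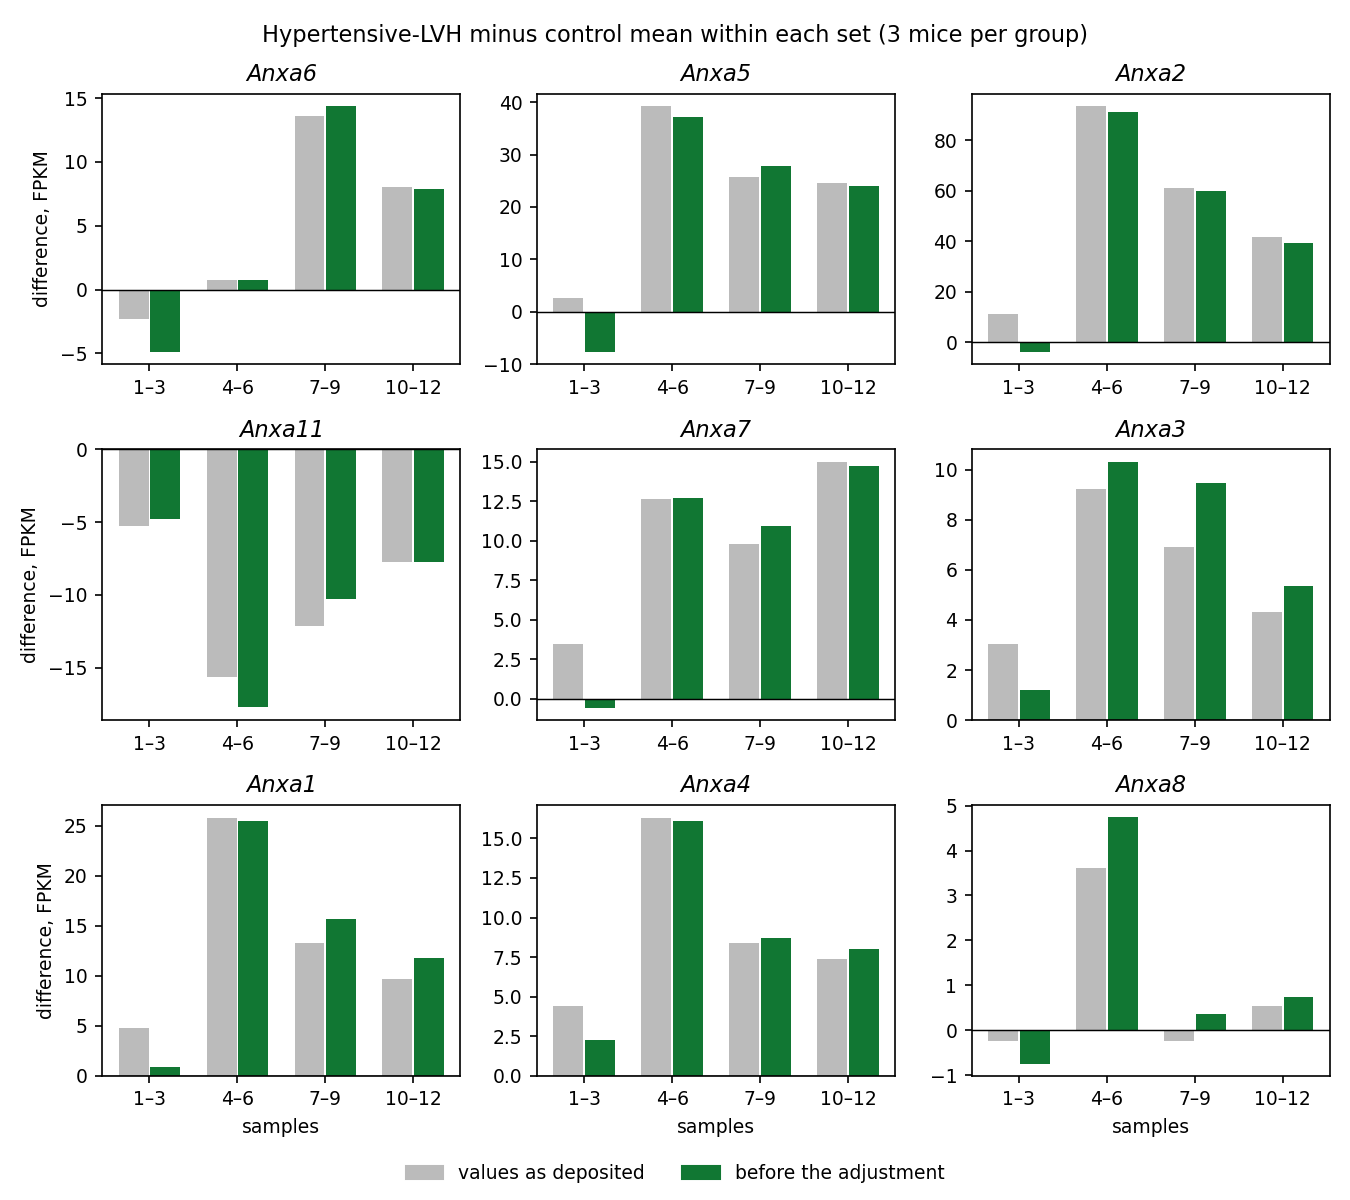
Difference of group means in FPKM (vertical axis, hypertensive-LVH minus control) in each set of samples (horizontal axis), 3 mice per group, from the deposited values (grey) and before the adjustment (green). In samples 1 to 3 the green bars of Anxa2, Anxa5, Anxa6, Anxa7 and Anxa8 lie under 0, and Anxa11 is under 0 in all 4 sets.

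Among mice of the same group and set, some annexins varied together. With the mean of each group in each set removed, the 36 pairs of annexins had a median Pearson r of 0.485 over 24 samples, and 17 pairs were above 0.5. Anxa2 and Anxa5 were the most alike pair (r = 0.89), followed by Anxa1 and Anxa4 (r = 0.87) and Anxa1 and Anxa3 (r = 0.84). Anxa11 had no pair above 0.35, and its lowest was with Anxa2 (r = -0.29). Anxa6 had no pair above 0.37. Over 11457 other genes, the 99th percentile of r ran from 0.53 for Anxa11 to 0.851 for Anxa2, so an r above 0.5 is not particular to annexin pairs. The correlations between annexins describe samples that share libraries, tissue composition and the adjustment of each set, so no p is given.

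**Figure D4:**
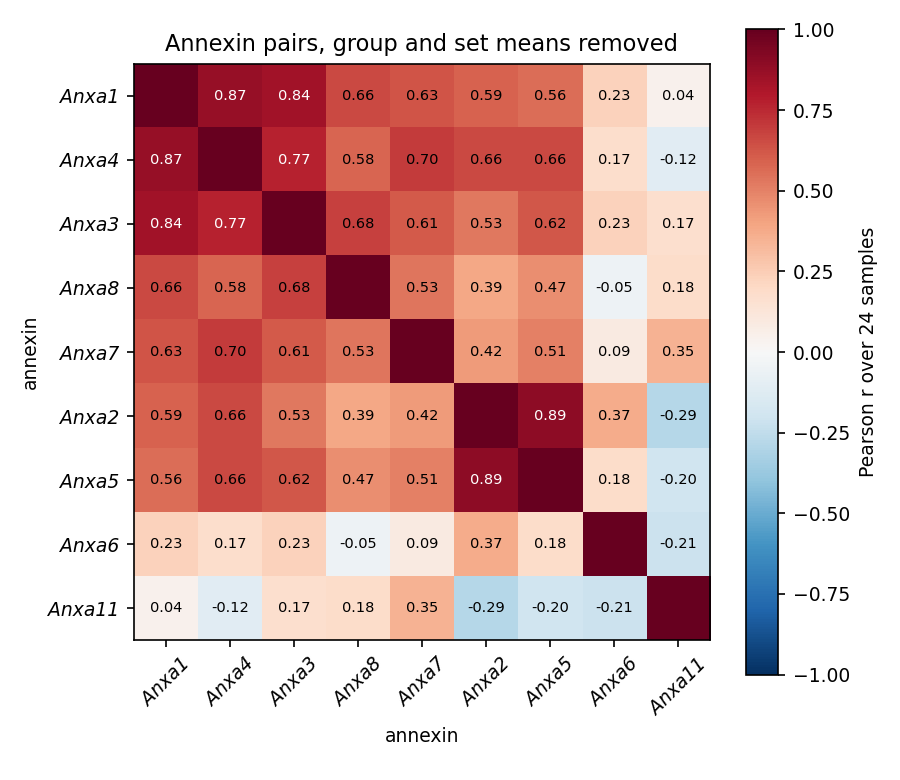
Pearson r between the log2 values of each pair of annexins (rows and columns) over 24 samples, after the mean of each group in each set was removed, from blue (-1) to red (1). Anxa1, Anxa4 and Anxa3 form a block with r from 0.77 to 0.87, Anxa2 and Anxa5 reach 0.89, and the Anxa6 and Anxa11 rows stay at or under 0.37.

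By the same measure over 11457 other genes with a mean of at least 1 FPKM, the closest genes to Anxa2 were Txndc5 (r = 0.971), P3h3 (r = 0.955) and Cfl1 (r = 0.953). P3h3 (r = 0.924) was also among the closest to Anxa5, after Scarf2 (r = 0.959) and Npdc1 (r = 0.940). For Anxa1 they were Eef1a1 (r = 0.944), Calu (r = 0.938) and Asah1 (r = 0.934), and for Anxa4 they were Col5a2 (r = 0.921), Cfb (r = 0.915) and Mmp14 (r = 0.907). Anxa3 lay nearest to Nfatc4 (r = 0.908), Pld2 and Ryk, Anxa8 to Ddr1 (r = 0.870), Cfd and Crlf3, and Anxa7 to Pmm1 (r = 0.856), Tmem50a and Zfp956. The highest values were lower for Anxa11, with Msrb1 (r = 0.823), Slc41a1 and Rnaseh2b, and for Anxa6, with Madd (r = 0.800), Tbl2 and Nfatc2ip.

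Genes that work with the annexins were read from the same limma fit, and each list was small. Of 6 S100 partners, 3 rose and 0 fell, beside 20.9% of all genes tested that rose and 12.6% that fell, and the median log2 fold change was 0.73 beside 0.05 over all genes. The number that rose was 4 without samples 1 to 3, when 19.2% of all genes rose, and 2 without samples 4 to 6, when 8.40% rose. S100a11, a partner of ANXA1, rose by 1.00 ± 0.19 on the log2 scale (limma adjusted p = 0.000336). S100a6 rose by 0.77 ± 0.21 (limma adjusted p = 0.00727), but by 0.36 with no call (limma adjusted p = 0.198) when samples 4 to 6 were left out. S100a10, which forms the surface complex with ANXA2, rose from 48.1 ± 9.82 to 78.6 ± 15.2 FPKM, by 0.70 ± 0.11 on the log2 scale (limma adjusted p = 4.9e-05). S100a1, by far the most abundant of the list, was at 1050 ± 153 FPKM in controls and 923 ± 110 after ANG II (log2 fold change -0.18, limma adjusted p = 0.0845).

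Of 6 genes described around ANXA2 and fibrinolysis, 3 rose and 0 fell (20.9% and 12.6% of all genes tested), with a median of 0.38. Without samples 4 to 6, and likewise without samples 10 to 12, 2 rose (8.40% and 15.8% of all genes tested). Serpine2, a protease inhibitor, rose by 0.67 ± 0.23 on the log2 scale (limma adjusted p = 0.0260), but by 0.15 with no call (limma adjusted p = 0.460) without samples 4 to 6. Plaur, the urokinase receptor, rose by 0.65 ± 0.18 (limma adjusted p = 0.00754), but by 0.33 with no call (limma adjusted p = 0.135) without samples 10 to 12. Plat, the tissue plasminogen activator, also rose (0.52 ± 0.11, limma adjusted p = 0.00109).

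Of 6 genes tested around ANXA1, 1 rose and 1 fell, with a median of 0.10. That share is near the 33.5% of all genes that passed in either direction, so nothing is read from the count. Alox5ap, the protein that presents arachidonic acid to 5-lipoxygenase, rose by 0.80 ± 0.16 on the log2 scale (limma adjusted p = 0.000431), whereas Alox5, the lipoxygenase itself, changed by -0.55 ± 0.10 (limma adjusted p = 0.000154). The receptors Fpr1 and Fpr2 were at or under 0.371 FPKM on average in both groups and did not pass (limma adjusted p = 0.574 and 0.560).

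Of 12 membrane repair genes tested, 4 rose and 1 fell, with a median of 0.10, which is likewise near the background of 33.5% called and a median of 0.05. Myof rose by 0.45 ± 0.14 (limma adjusted p = 0.0173), a call lost without samples 4 to 6 (0.18, limma adjusted p = 0.281), and the calpain Capn2 rose by 0.35 ± 0.05 (limma adjusted p = 1.74e-05). Syt7, a calcium sensor of lysosome exocytosis, fell by 0.46 on the log2 scale (SE 0.05, limma adjusted p = 1.64e-06). Of 17 genes of phosphatidylserine exposure and its sensing, 7 rose and 1 fell (20.9% and 12.6% of all genes tested), with a median of 0.22. Without samples 4 to 6, and likewise without samples 7 to 9, 4 rose (8.40% and 17.8% of all genes tested). The receptors Mertk (0.48 ± 0.10, limma adjusted p = 0.00117) and Havcr2 (0.45 ± 0.10, limma adjusted p = 0.00139) rose, and the receptor Timd4 fell by 0.45 (SE 0.11, limma adjusted p = 0.00213). Of 6 calcium-linked partners, 2 rose and 0 fell, with a median of 0.07, again near the 33.5% called and the median of 0.05 over all genes. The risen genes were the galectin Lgals3 (1.46 ± 0.30, limma adjusted p = 0.00078) and Sri, which encodes sorcin, the partner of ANXA7 (0.24 ± 0.06, limma adjusted p = 0.00188).

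**Figure D5:**
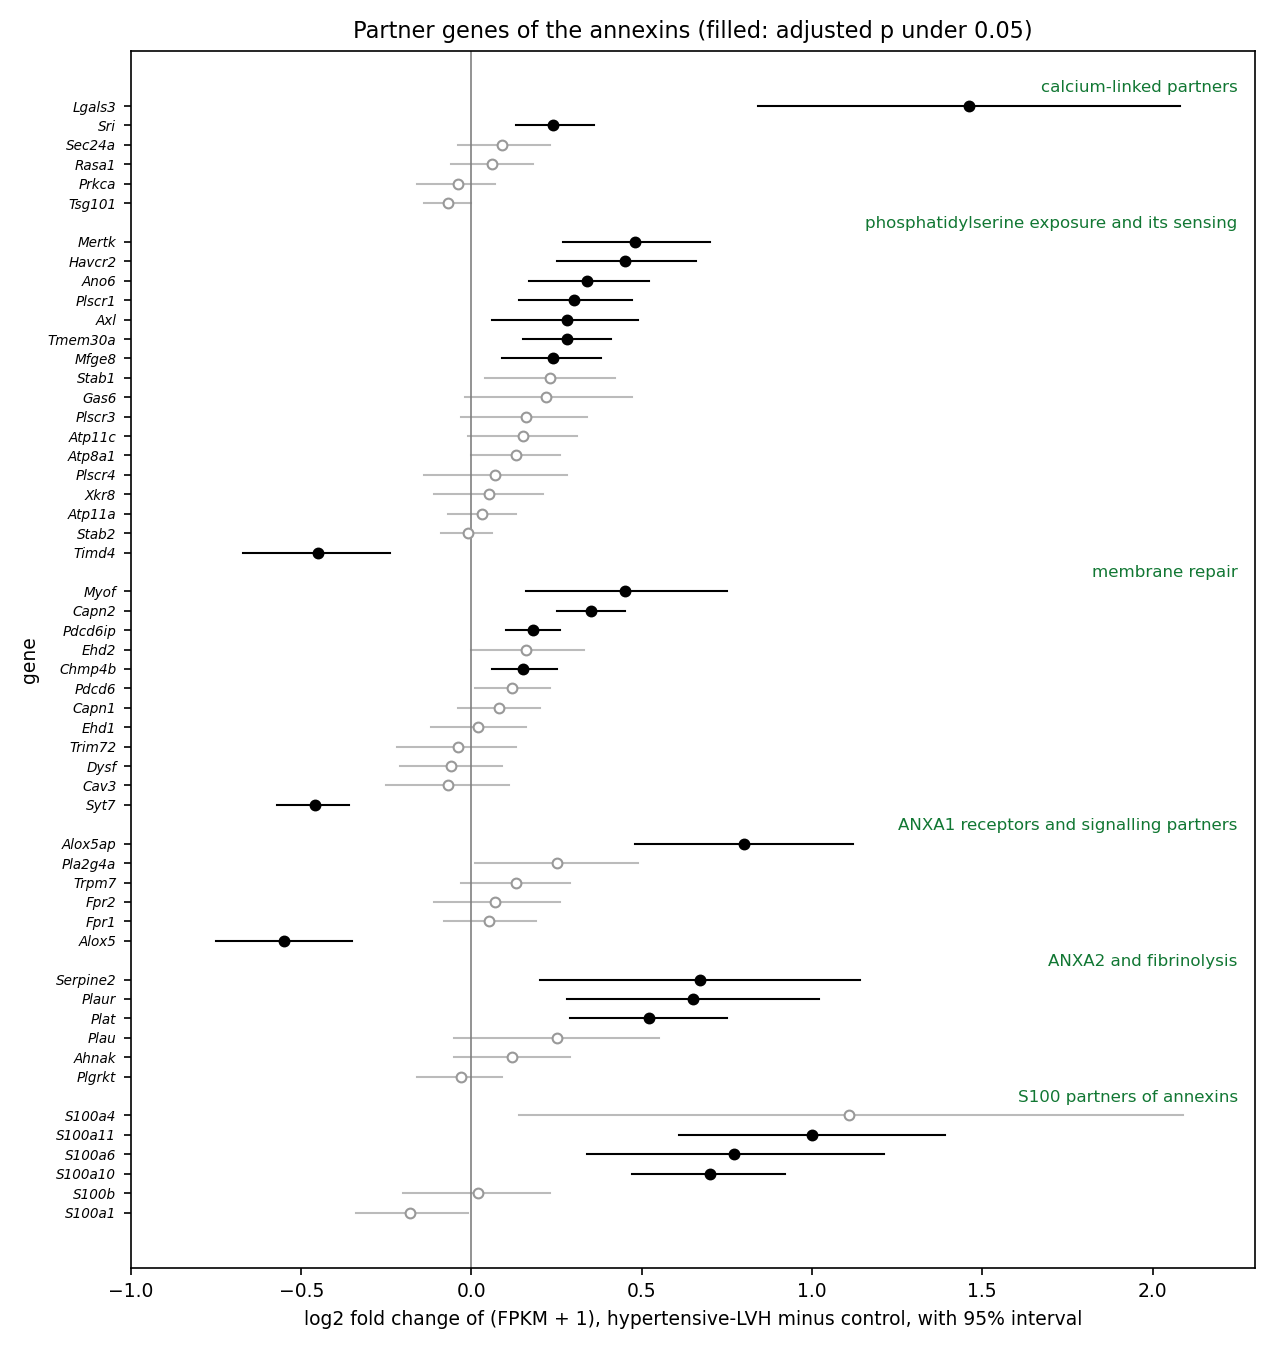
Log2 fold change of FPKM + 1 (horizontal axis, hypertensive-LVH minus control, with the 95% interval from limma) for the partner genes of the annexins, grouped by list. Filled points passed an adjusted p of 0.05; Lgals3 (1.46) and S100a11 (1.00) are the farthest right of these, and Alox5 (-0.55) is the farthest left.

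Markers of several cell types moved with the annexins (beside 20.9% of all genes tested that rose and 12.6% that fell), and in whole tissue fewer cells of a type and less RNA per cell cannot be told apart. Of 8 fibroblast markers, 4 rose and 0 fell; their summed level ranged from 25.1 to 1020 FPKM in controls and from 708 to 2640 after ANG II, and Col1a1, Col1a2 and Col3a1 each held 3 negative control values. Without samples 4 to 6 only Col1a1 still rose, by 0.77 in place of 2.77 on the log2 scale, so 1 of 8. In that setting 8.40% of all genes tested rose, so 1 of 8 is near the background. Of 6 activated fibroblast markers, 5 rose, with sums of 59.9 to 156 and 107 to 424 FPKM, and 3 rose without samples 4 to 6. In this list Cthrc1, Comp and Tnc each held 3 negative control values as well. Of 10 macrophage and monocyte markers, 9 rose, with sums of 194 to 424 and 258 to 737 FPKM, but only 1 rose without samples 4 to 6, when the median of the list was 0.50 in place of 0.61. That 1 of 10 is also near the 8.40% of all genes. Of 8 cardiomyocyte markers, 5 fell and 0 rose, with sums of 45800 to 59200 and 34700 to 50800 FPKM. Of these, 2 fell under quantile normalization, when the median of the list was -0.01 in place of -0.31. That is near the 20.9% of all genes tested that fell in that setting. Without samples 4 to 6, and likewise without samples 10 to 12, 3 fell (11.7% and 9.44% of all genes tested). In samples 4 to 6, where most annexins differed most, the mean fibroblast sum was 102 FPKM in controls and 2090 after ANG II, against 951 and 1130 in samples 1 to 3. These sums are on the adjusted scale and include negative values, which reached -59.5 FPKM for Col1a1 in controls. The sum of 102 is therefore not read as the amount of fibroblast RNA in those controls.

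Within groups and sets, the fibroblast markers went with Anxa1 (r = 0.91), Anxa4 (r = 0.88) and Anxa3 (r = 0.80), and the cardiomyocyte markers went against them (r = -0.78, -0.71 and -0.69), over 24 samples. The activated fibroblast markers gave 0.88, 0.88 and 0.76. Anxa1 was also at 0.70 with the smooth muscle and pericyte, 0.64 with the macrophage and monocyte and 0.63 with the adipocyte markers. Anxa2 was closest to the macrophage and monocyte markers (r = 0.76), before the T and B cell (r = 0.61) and fibroblast markers (r = 0.60). An r is therefore not read as a link to 1 cell type. Anxa8 went with the adipocyte (r = 0.84) and the epicardial and mesothelial markers (r = 0.76), lists in which 0 of 3 and 0 of 7 genes tested passed in limma, with 0 genes also at an unadjusted p under 0.05 in limma or the Wilcoxon rank-sum test. Their sums ranged from -8.06 to 46.6 and 5.86 to 64.2 FPKM in controls and from 2.51 to 61.5 and 2.56 to 31.0 after ANG II. Anxa11 was between -0.29 and 0.39 for all 12 marker lists, and Anxa6 between -0.18 and 0.57. The part of these cell types in the annexin results was not tested.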

How the data were processed

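Left ventricles of 12 hypertensive-LVH and 12 control mice were analysed. The submitters' processing notes name Bowtie2, HISAT and RSEM, and the genome build is not given in the sources used here. The authors deposited FPKM, but the deposited values are a score on the FPKM scale, since a step that the methods do not name shifted and scaled each gene within 4 sets of samples, joined here where at least 200 genes were tied. Per-sample depth is unknown, and the number of mice limits the precision.

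Negative values were set to 0 for log2(FPKM + 1) and kept in printed FPKM. The added 1 understates changes of low genes. Values set to 0 in 1 group can instead enlarge a change. For Col1a1, with 3 negative values, means of 86.7 (control) and 292 FPKM (hypertensive-LVH) stood beside a log2 fold change of 2.77. The 14026 genes averaging 0.1 or more entered limma 3.58.1 in R 4.3.3, where the variance followed an intensity trend, p-values were adjusted after Benjamini-Hochberg, and DEGs had an adjusted p under 0.05 and an absolute log2 fold change over 0.5. Differences before the adjustment were solved from the spacing of the values, under a description in which a difference between the groups was put aside while each set was rescaled and restored afterwards. Of 500 genes drawn from the table, 450 gave a single solution, and 0 after the hypertensive-LVH values of each set were shifted by part of a step. Exact permutation tests exchanged labels within sets. All tests were two-sided. Python 3.11.15 with numpy 2.4.6, pandas 2.3.3, scipy 1.17.1 and matplotlib 3.10.9 was used for the rest. Both model fits and the recovery were tested on simulated data.

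The members and the lists of partner genes and markers were chosen with earlier results of these data known. Named genes are the 9 annexins, Anxa9 and Anxa13, in each partner list the 3 genes past the adjusted p with the largest change and any that went against the others, and the 3 genes most like each annexin. S100a1, Fpr1 and Fpr2 and the marker genes were named beyond this rule, after their values were seen. Anxa10, Plg, Fpr3, Fpr-rs3, Fpr-rs4, Otof, Cavin1, Muc16 and Lep were not analysed here, and 1 gene of the fibrinolysis list is not reported here. Marker lists also covered neutrophils (1 of 5 rose), endothelial cells (2 of 8 rose, 1 fell), smooth muscle cells and pericytes (2 of 8 rose, 2 fell), T and B cells (1 of 6 rose, 1 fell), red blood cells (5 of 5 rose, with sums of 56.2 to 2950 FPKM in controls and 779 to 6440 after ANG II) and atrial myocytes (0 of 3 in limma, and 0 at an unadjusted p under 0.05 in limma or the Wilcoxon test). Beside these counts, 20.9% of all genes tested rose and 12.6% fell, and apart from red blood cells nothing is read from them. The rises among neutrophil, smooth muscle and pericyte, and T and B cell markers lost their calls without samples 4 to 6. Symbols were matched to GENCODE vM21 (14881 of 14912). Promoter windows came from RefSeq tables for GRCm38.p6.

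The fit was repeated with quantile normalization or median-ratio scaling, with 0.1 as the pseudocount, without a filter or with a minimum mean of 1, without the trend, as a Wilcoxon rank-sum test, with the replicate number as a block or the set as a term, and without each set and each mouse.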

Additional observations from a re-analysis of the deposited data

How the results depend on the processing

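The direction of each annexin's change was the same under every alternative run, and the 7 annexins that passed the adjusted p passed under all of them. Leaving out samples 4 to 6 of both groups left 1 DEG, Anxa2. Without 1 mouse at a time the number past the adjusted p ranged from 7 to 8 and the number of DEGs from 3 to 4, Anxa8 being gained without hypertensive-LVH sample 10 or control sample 2; without samples 1 to 3 or 7 to 9 it was gained as well (8 and 4). With quantile normalization the interaction of group and set passed for 1 annexin, and Anxa8 passed before the adjustment, at 1.28 FPKM (exact permutation p = 0.0485). Anxa8 ranged from 0.03 without samples 4 to 6 to 1.13 with a pseudocount of 0.1, and Anxa6 from 0.01 with median-ratio scaling to 0.09 on the log2 scale; the causes were not tested. Over all genes, DEGs numbered 831, but 1489 with the smaller pseudocount and 553 without samples 4 to 6, and calls by adjusted p numbered 4697, but 2810 without samples 4 to 6.

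With the replicate number as a block, 7 annexins passed the adjusted p and 3 were DEGs, and calls over all genes fell to 2824. Deviations from the group means, compared between samples with the same number, had correlations from -0.557 to -0.00109 (0 of 12 over 0.1, and 0 of 12 samples closest to their own number). These correlations cannot decide whether the numbers are pairs. The adjustment shifted both groups of a set together, so a high mean in 1 group goes with a low mean in the other. The study names no pairing, and the numbers were not treated as pairs.

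Ties in the deposited values show the adjustment but not its cause, and the offsets between sets cannot be recovered, so levels of annexins in different sets stay on the adjusted scale.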
